A study of Mus musculus with 12 samples.

Results

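The VPS10 sorting receptors are 5 mouse genes, Sorl1, Sort1, Sorcs1, Sorcs2 and Sorcs3, chosen by symbol as the whole family, and all 5 were found among the 32285 genes of the count matrices. Their transcripts were counted in nuclei of the left hippocampus of female mice by snRNA-seq in droplets, where each captured RNA molecule is tagged at its 3′ end and counted once as a unique molecular identifier (UMI). There were 12 libraries, with 3 from 3xTg-AD mice and 3 from WT littermates at 6 months and the same at 12 months. 3xTg-AD is a strain that carries human APP and tau transgenes with the disease mutations APPSwe and tauP301L, among its alleles. The WT littermates do not carry these transgenes. Nuclei were sorted by FACS from snap-frozen tissue of perfused animals, and the cell types that express the transgenes are not given in the sources used here. Replicate numbers run from 1 to 12 over the series, so that each names 1 mouse and none is shared between groups.

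VPS10 receptors are membrane proteins that carry cargo between the Golgi, endosomes and the cell surface. SORLA, the product of Sorl1, returns the amyloid precursor protein from endosomes to the Golgi together with the retromer, and sortilin, the product of Sort1, takes up progranulin and binds neurotensin and the precursors of neurotrophins. SorCS1, SorCS2 and SorCS3 have been studied mostly in neurons, where SorCS1 sorts synaptic adhesion molecules and glutamate receptors, SorCS2 joins neurotrophin receptors in binding pro-BDNF, and SorCS3 sits at the postsynaptic side. Human SORL1 and SORT1 are among the genes tied to the risk of Alzheimer's disease.

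In GENCODE vM21 on GRCm38, Sorl1 (ENSMUSG00000049313) lies on the minus strand of chromosome 9 from 41964720 to 42124297, with 54 distinct exons. Sort1 (ENSMUSG00000068747) lies on the plus strand of chromosome 3 from 108284082 to 108361511, with 25 exons. Sorcs1 (ENSMUSG00000043531) and Sorcs3 (ENSMUSG00000063434) are both on chromosome 19, the first on the minus strand from 50143299 to 50678646 with 39 exons and the second on the plus strand from 48206025 to 48805505 with 32. Sorcs2 (ENSMUSG00000029093) lies on the minus strand of chromosome 5 from 36017180 to 36398139, with 36 exons. Genes annotated as antisense overlap 3 of them, and other genes on the opposite strand overlap Sorcs2 and Sorcs3. The use of strand in the counting is not stated, so whether their reads were told apart is not known. Few UMIs were given to those that were counted in the 6 main classes. Gm45352 and Gm26629 held 5823 and 718 UMIs against 530342 of Sorcs1, and Gm16214 held 1593 against 99713 of Sorl1. Gm12523 held 60 against 119293 of Sort1, and Psapl1 held 90 against 126212 of Sorcs2.

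The libraries held 79177051 to 128323908 UMIs, and 184956 of 185643 barcodes passed the filters on nuclei. Each nucleus was given a class by its own marker genes, which left 42445 nuclei with no class and set 2564 with markers of more than 1 class aside. A cell type name below means the nuclei that passed that gate. For 3 of the 20 types compared, the summed markers of the type were not highest in it: those of CA3 and CA2 neurons were at 3348 CPM (UMIs per 1000000 UMIs) in their own gate and 3399 in habenular neurons, those of Lamp5 interneurons were at 7595 in their own gate and 14665 in Vip interneurons, and those of D1 medium spiny neurons at 5332 and 5884 in pericytes. Pairs of libraries shared 29 to 105 barcodes, at most 0.65% of the smaller.

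In 4 libraries the hippocampal neurons were scarce. The 12-month 3xTg-AD replicates 2 and 6 held 14 and 23 dentate granule nuclei and the 6-month WT replicates 3 and 11 held 38 and 138, against 344 to 714 in the other libraries. These 4 held 0 to 9 CA1 and subiculum nuclei each. Nuclei with striatal markers made up 3.06%, 5.54% and 4.38% of inhibitory nuclei in the 12-month WT libraries and 40.9%, 41.6% and 14.7% in 12-month 3xTg-AD (two-sided exact permutation p = 0.1, the smallest possible, adjusted p = 0.5). Thalamic, habenular and striatal neurons lie outside the hippocampus. Because the receptors differ between these neurons, genotypes are also compared within those neuron subtypes that had at least 2 libraries of each genotype with enough nuclei. CA1 and subiculum neurons, CA3 and CA2 neurons and Vip interneurons did not at either age and were not tested, nor were habenular neurons at 6 months or D1, D2 and Lamp5 neurons at 12 months.

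Levels are in CPM of the UMIs summed over all nuclei of a type in a library, and they were computed where a library held at least 20 nuclei of the type. They are given as the lowest, median and highest library. Genes are not compared with each other, since the use of introns in counting is not given in the sources used here. A total of 20 types with 6 to 12 such libraries were ordered by their mean. The share of nuclei with a UMI was also taken after each nucleus was thinned to 2000 UMIs, which leaves shallower nuclei out (13855 of 28584 oligodendrocytes, 345 of 4167 OPCs, 6017 of 21211 astrocytes and 0 of 625 CA1 and subiculum nuclei). No type is known to lack these genes, and the part of free RNA in the low levels, which weighs more in shallow nuclei such as those of microglia (median 1562 UMIs), was not tested.

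Sorl1 was most abundant in CA1 and subiculum neurons, dentate granule neurons and astrocytes and lowest in OPCs. In CA1 and subiculum neurons it was at 308, 371 and 420 CPM (lowest, median and highest of 8 libraries), in dentate granule neurons at 122, 221 and 251 (11 libraries), and in astrocytes at 156, 197 and 255 (12 libraries). All other types had a lower mean. Thalamic neurons, which are excitatory too, were at 27.8, 37.3 and 52.8 CPM, and OPCs, the precursors of oligodendrocytes, at 8.63, 17.5 and 23.4, so that no library of either reached the lowest library of the first 3 types. After thinning, a UMI of Sorl1 was found in a median 52.6% of CA1 and subiculum nuclei and 2.12% of OPC nuclei, and without thinning in 97.6% and 5.22%, at median depths of 12981 and 3316 UMIs.

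Sort1 was found in every type, with the highest mean in oligodendrocytes and OPCs below all others. It was at 263, 283 and 355 CPM in oligodendrocytes, 220, 270 and 309 in CA1 and subiculum neurons, and 151, 188 and 258 in microglia, which make the sortilin ligand progranulin. The means of the 19 types other than OPCs ran from 81.2 to 291 CPM. In OPCs it was at 19.2, 25.5 and 33.1 CPM, below the lowest library of every other type. The thinned share of nuclei with a UMI was 42.7% in oligodendrocytes and 3.78% in OPCs, and it was 44.5% and 7.61% unthinned.

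Sorcs1 was most abundant in both stages of the oligodendrocyte lineage and in Vip interneurons and D1 medium spiny neurons. It was at 1164, 1291 and 1580 CPM in oligodendrocytes and 840, 903 and 1011 in OPCs. Vip interneurons, with 20 to 22 nuclei in each of 6 libraries, were at 669, 1176 and 1653 (with nuclei weighted equally, their mean of 1363 CPM was above the 1354 of oligodendrocytes), and D1 medium spiny neurons at 519, 745 and 864. Lmx1a and Lmx1b neurons, which are excitatory, came next by mean, at 431, 618 and 794 CPM, above D2 medium spiny neurons and Sst interneurons. The principal neurons of the hippocampus were at the other end, with 81.8, 139 and 183 CPM in CA1 and subiculum neurons, 42.2, 55.2 and 369 in dentate granule neurons, and 4.03, 29.1 and 49.1 in the nuclei gated as CA3 and CA2. The thinned share of nuclei with a UMI was 84.2% in oligodendrocytes and 3.71% in CA3 and CA2 neurons (82.7% and 12.0% unthinned, at 1988 and 13763 UMIs). In microglia, astrocytes and endothelial cells the mean level was 211, 142 and 238 CPM in summed counts and 72.6, 74.4 and 109 CPM with each nucleus weighted equally, so that the deeper nuclei of these gates held more Sorcs1 per UMI.

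Sorcs2 was highest in habenular and thalamic neurons and in astrocytes, and lowest in oligodendrocytes. Habenular neurons were at 207, 268 and 337 CPM, thalamic neurons at 199, 233 and 280, and astrocytes at 187, 226 and 266. These 3 types overlapped across libraries. Oligodendrocytes were at 15.9, 21.8 and 30.2 CPM, pericytes at 0, 21.3 and 74.6 and OPCs at 19.0, 34.2 and 46.1, with thinned shares of 2.46%, 3.04% and 4.75% against 38.0% in habenular neurons (3.02%, 3.08%, 9.02% and 74.3% unthinned).

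Sorcs3 stood out in Vip interneurons, at 1114, 1479 and 1958 CPM, above every library of the other 19 types. The stricter gate left no library with enough Vip nuclei. Among the types that still had enough libraries for the order, OPCs then had the highest mean, 671 CPM. Lmx1a and Lmx1b neurons had a higher mean, 806 CPM, but only 4 libraries, and were left out of that order. In the main gate Sorcs3 followed in Lmx1a and Lmx1b neurons at 531, 711 and 853, in OPCs at 592, 678 and 750, and in CA1 and subiculum neurons at 482, 613 and 837. Dentate granule neurons were at 139, 173 and 526 CPM and CA3 and CA2 neurons at 60.3, 126 and 193, both below every library of CA1 and subiculum neurons but for 1 library of granule neurons. Astrocytes were at 61.6, 97.1 and 127, with a mean of 96.3 CPM in summed counts and 43.1 with nuclei weighted equally. The thinned share with a UMI was 84.2% in Vip interneurons and 6.98% in astrocytes (95.1% and 8.54% unthinned, at 6982 and 2567 UMIs).

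**Figure D1:**
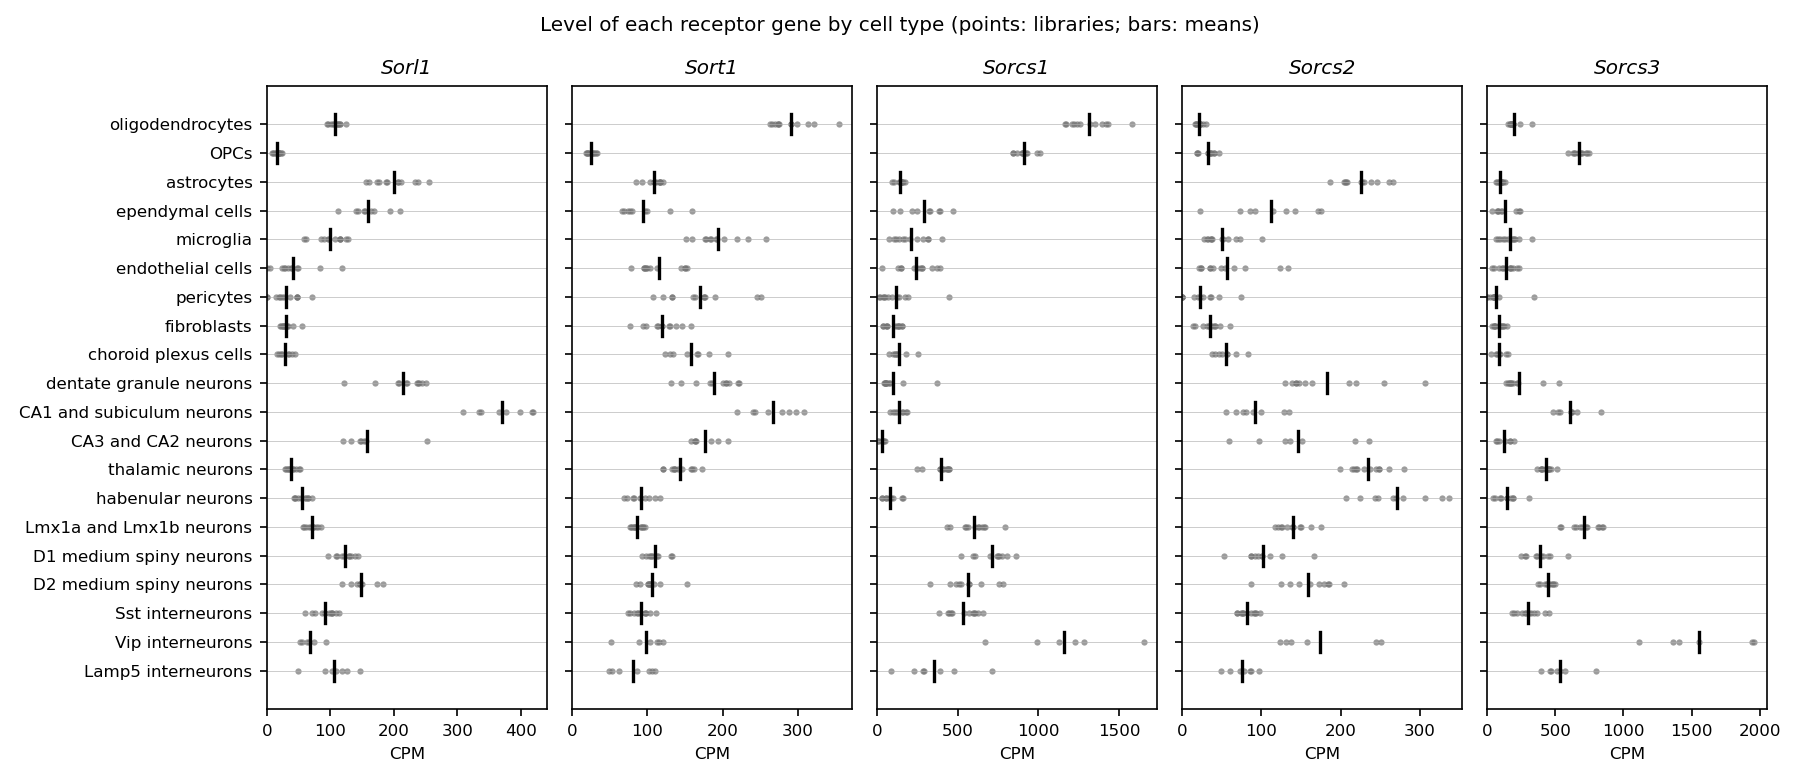
Level of each receptor gene (x axis, CPM, each panel with its own scale) in 20 marker-gated types (y axis), where points are libraries and bars their means. Sorl1 peaks in CA1 and subiculum neurons (mean 370 CPM), Sort1 and Sorcs1 in oligodendrocytes (291 and 1314), Sorcs2 in habenular neurons (271) and Sorcs3 in Vip interneurons (1556), while OPCs hold the lowest mean of Sorl1 and Sort1.

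Neighbours were compared within libraries by a two-sided exact sign-flip permutation test of log2(CPM + 1), and 19 of the 95 pairs had an unadjusted p under 0.05 but 0 passed after the Benjamini-Hochberg adjustment (smallest adjusted p = 0.0773). The pairs shared 4 to 12 libraries, for which the smallest possible p is 0.125 to 0.000488, so pairs with few libraries could hardly pass and these tests do not show neighbours to be alike. In 6 of the 95 pairs the direction was the same in every shared library, with a mean difference larger than its SD. The order was taken from these same levels, which largely sets the direction of each pair, so the shared direction is only descriptive. Among them, on the log2 scale with SD, Sorl1 stepped down by 0.69 ± 0.14 from CA1 and subiculum to dentate granule neurons (8 of 8 libraries, adjusted exact p = 0.148). Sort1 stepped down by 1.65 ± 0.58 from Lamp5 interneurons to OPCs (7 of 7, adjusted exact p = 0.204), and Sorcs3 by 0.96 ± 0.28 from Vip interneurons to Lmx1a and Lmx1b neurons (6 of 6, adjusted exact p = 0.212).

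Oligodendrocytes and their precursors were compared, with the other 2 pairs given below, after the levels had been seen, in 15 exact sign-flip permutation tests adjusted together. Oligodendrocytes had 6.57-fold more Sorl1 than OPCs, 11.4-fold more Sort1 and 1.44-fold more Sorcs1, and each was higher in 12 of 12 libraries (n = 12, exact p = 0.000488, adjusted p = 0.00183). Sorcs3 went the other way and was 3.49-fold higher in OPCs in 12 of 12 libraries (adjusted exact p = 0.00183). Sorcs2 was low in both, and 1.52-fold higher in OPCs in 10 of 12 libraries (adjusted exact p = 0.00977). With nuclei weighted equally, the means of Sorcs2 were 10.2 CPM in oligodendrocytes and 25.9 in OPCs. The family thus split within 1 lineage, with Sorl1 and Sort1 near their lowest levels in the precursors and at 108 and 291 CPM in the mature cells.

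**Figure D2:**
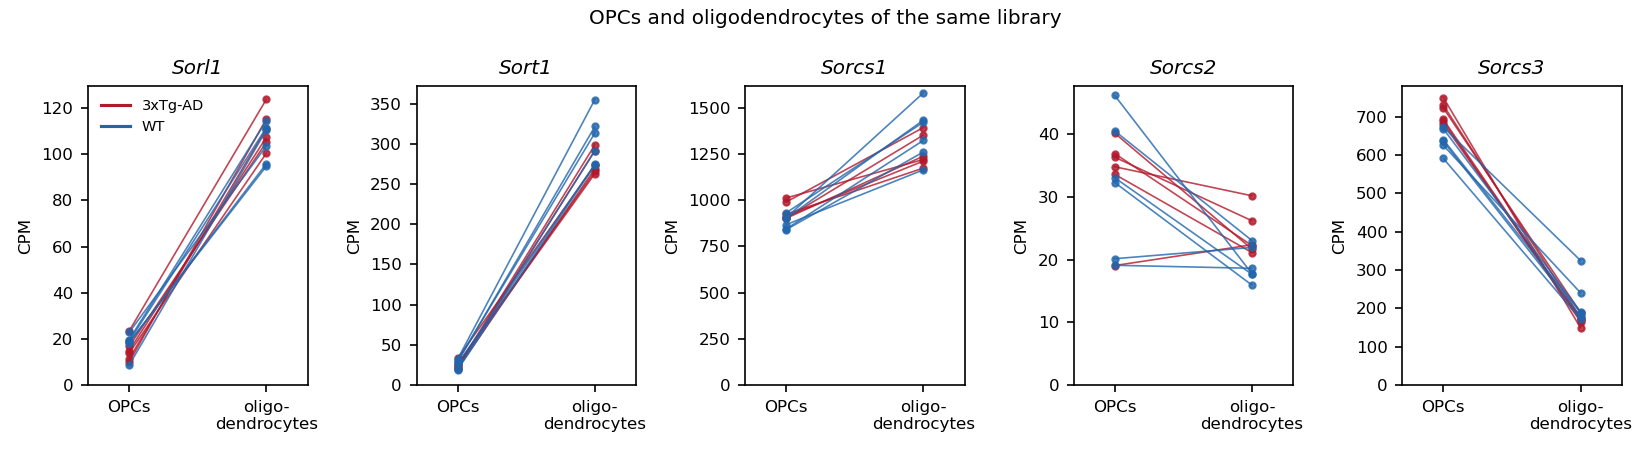
Level of each receptor gene (y axis, CPM) in OPCs and oligodendrocytes, with a line for each of the 12 libraries (red, 3xTg-AD, and blue, WT). Every line rises for Sorl1, Sort1 and Sorcs1 and every line falls for Sorcs3, with means of 675 CPM in OPCs and 193 in oligodendrocytes.

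CA1 and subiculum neurons and thalamic neurons differed in all 5 genes. Over the 8 libraries with enough nuclei of both, CA1 and subiculum neurons had 9.41-fold more Sorl1 than thalamic neurons, 1.86-fold more Sort1 and 1.42-fold more Sorcs3. Thalamic neurons had 3.10-fold more Sorcs1 and 2.57-fold more Sorcs2. Each direction held in 8 of 8 libraries (exact sign-flip permutation, adjusted p = 0.00977 for each of the 5 genes). The pooled level of excitatory neurons thus depends on the share of each subtype.

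The closely related D1 and D2 medium spiny neurons of the striatum differed less, over 10 libraries. D2 neurons had 1.55-fold more Sorcs2, higher in 10 of 10 libraries (adjusted exact p = 0.00488), and D1 neurons had 1.27-fold more Sorcs1, also in 10 of 10 (adjusted exact p = 0.00488). Sorl1 and Sorcs3 were 1.21-fold and 1.16-fold higher in D2 neurons (8 and 9 of 10 libraries, adjusted exact p = 0.0135 and 0.0335). The direction of Sorcs3 did not hold with the stricter gate, with means of 465 CPM in D2 and 473 in D1 neurons (9 libraries each). The Sorl1 pair is also one of the 95 pairs of neighbours, among which the same exact test did not pass (adjusted p = 0.186), so its call rests on the smaller family of tests. Sort1 was at 106 ± 18.6 CPM in D2 and 110 ± 13 CPM in D1 neurons (SD, n = 10), a difference that did not pass (adjusted exact p = 0.215).

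The genes with the most similar profiles were sought among 12358 genes, by Pearson's r of log2(CPM + 1) over the means of the 20 types, which share libraries and differ in depth. Gria1, an AMPA receptor subunit, Trim2 and Fam234b followed Sorl1 (r of 0.80, 0.77 and 0.75). Bin3, Acap2 and C630043F03Rik followed Sort1 less closely (0.67, 0.66 and 0.64). Nap1l5 and Lrrtm3, a synaptic adhesion molecule, were among those that followed Sorcs1 (0.87 and 0.82). Snph, which anchors mitochondria in axons, Chst10 and Gpr162 followed Sorcs2 (0.89, 0.88 and 0.86), and Gpr176, the adhesion molecule Cntn4 and Vstm5 followed Sorcs3 (0.91, 0.91 and 0.90). Within the family, Sorcs1 and Sorcs3 were the most alike (0.67) and Sort1 and Sorcs1 the least (-0.35).

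Whether the receptors differ between 3xTg-AD and WT was tested at each age on summed counts per type and library, with edgeR's quasi-likelihood test and the Benjamini-Hochberg adjustment over all genes tested in the type. Calls needed both an adjusted p under 0.05 and a log2 fold change beyond 0.2 in either direction, and fold changes are 3xTg-AD over WT with their SE. Of 84 tests of a receptor at 6 months 2 were called, and of 63 tests at 12 months 1 was called. These are 2.38% and 1.59% of the tests, against 0.642% and 1.2% over all genes in the same 18 and 14 fits. An unadjusted p under 0.05 was found for 16 and 8 tests, or 19.0% and 12.7%, against 8.54% and 10.8% over all genes, and tests of 1 gene in nested gates share nuclei. Groups whose libraries do not overlap are pointed out for some genes below, and the share of all genes for which this holds was not counted. With 3 against 3 libraries such a separation has a two-sided exact permutation p of 0.1, so it is not read as support. The remainder of this section goes through the 3 calls and the differences nearest to the threshold.

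In thalamic neurons at 12 months Sorl1 was lower in 3xTg-AD than in WT. It was at 27.8, 32.6 and 29.7 CPM in the 3xTg-AD libraries 2, 6 and 10 and at 50.5, 40.4 and 45.6 in the WT libraries 4, 8 and 12. Every 3xTg-AD library was below every WT library. The log2 fold change was -0.55 ± 0.11 (SE, adjusted p = 0.0374), and 1.42% of all genes tested in this type at this age were called. The other 4 receptors had log2 fold changes from -0.15 to 0.20 and were not called. At 6 months Sorl1 was at 36.2, 32.6 and 38.5 CPM in 3xTg-AD and 52.8, 35.7 and 41.1 in WT (-0.19 ± 0.12, adjusted p = 0.604), where 1.32% of genes were called. The call at 12 months was lost without any 1 of the 3xTg-AD libraries (adjusted p = 0.178 without replicate 2, 0.0866 without 6 and 0.138 without 10) and with a stricter gate (0.0612), with log2 fold changes from -0.62 to -0.43 in all of these fits and those without a WT library. The summed thalamic markers of this gate were themselves at 8514, 7960 and 7846 CPM in the 3xTg-AD libraries 2, 6 and 10 and 7693, 6999 and 6706 in the WT libraries 4, 8 and 12, with no overlap, and their part in the difference was not tested.

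Sorl1 in pooled excitatory neurons and in astrocytes had the same direction at 12 months and was not called. In excitatory neurons it was at 83.1, 73.6 and 83.0 CPM in 3xTg-AD and 112, 103 and 124 in WT, with no overlap (-0.45 ± 0.09, adjusted p = 0.0553, 0.863% of genes called). These pooled libraries hold thalamic nuclei and few granule nuclei in replicates 2 and 6. Without the thalamic, habenular and Lmx1a and Lmx1b neurons the log2 fold change was -0.57 (adjusted p = 0.0725). Over all 12 libraries this left 19224 excitatory nuclei. The granule, CA1 and subiculum, and CA3 and CA2 gates held 4518, 639 and 282, so most of the rest had no subtype and may lie outside the hippocampus. Without the 4 libraries with scarce hippocampal neurons the log2 fold change was -0.44. That fit of both ages has replicate 10 alone for 12-month 3xTg-AD, which is assumed to vary as the other groups do, so it gives no check over replicates. The share of dentate granule nuclei, which had more Sorl1 than thalamic nuclei, was 0.594%, 0.990% and 10.4% in 3xTg-AD and 18.7%, 15.3% and 22.2% in WT. That of CA1 and subiculum nuclei, the type highest in Sorl1, was 0.0424%, 0.387% and 2.56% against 2.01%, 2.68% and 3.89%. The part of these shares in the pooled difference was not tested. DESeq2's Wald test, the stricter gate and edgeR with no filter on low counts each called the gene (adjusted p = 0.00311, 0.0393 and 0.0229). All genes called in these fits were 620 of 18306, 167 of 17366 and 488 of 27577. They are 3 of 8 other settings. edgeR with another normalization (adjusted p = 0.0572) or with all 12 libraries in 1 fit (0.109) did not call it. Of the 6 edgeR fits without 1 library, 1 called it (adjusted p from 0.0383 to 0.257). That fit, without 3xTg-AD replicate 10, called 822 of 18391 genes.

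In astrocytes, Sorl1 was at 156, 188 and 177 CPM in 12-month 3xTg-AD and 255, 238 and 233 in WT, again with no overlap (-0.47 ± 0.13, adjusted p = 0.167, 0.546% of genes called). None of the 13 other fits of this comparison called it, with adjusted p from 0.0630 to 0.685. At 6 months astrocytes were at 206, 189 and 161 CPM in 3xTg-AD and 206, 174 and 212 in WT, which overlap (-0.08 ± 0.11, adjusted p = 0.878, 0.774% of genes called). Excitatory neurons at 6 months overlapped too, at 86.2, 96.3 and 93.8 CPM against 69.5, 111 and 97.4 (0.06 ± 0.15, adjusted p = 0.915, 1.07% of genes called).

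**Figure D3:**
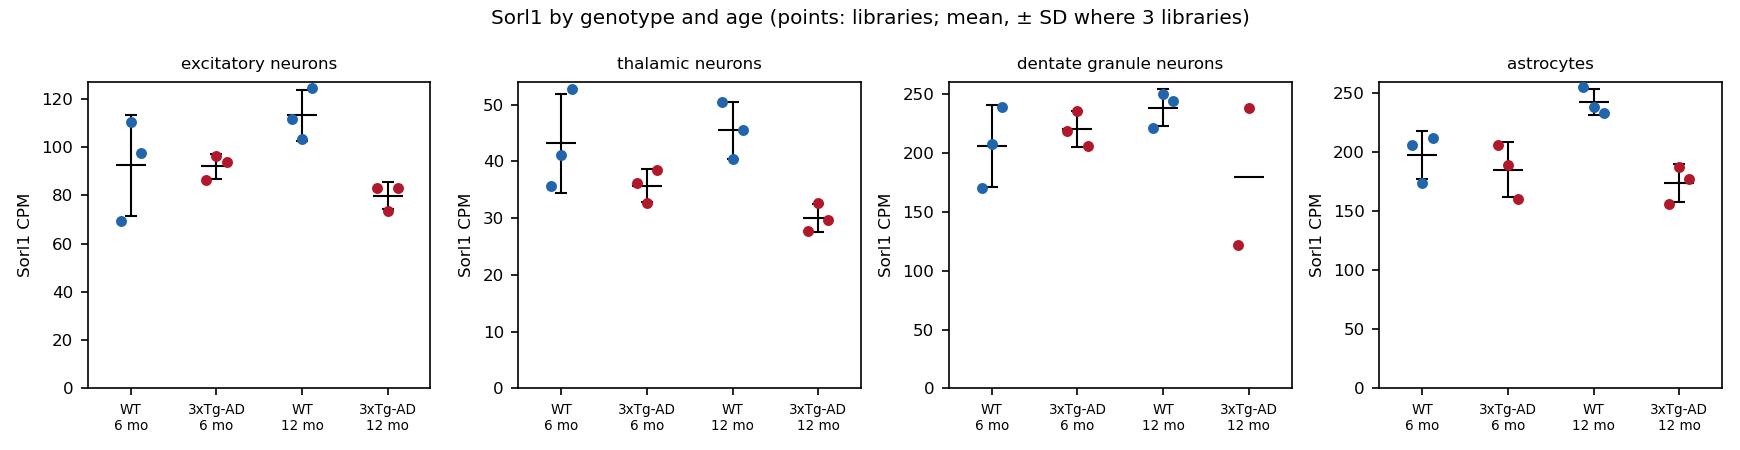
Sorl1 (y axis, CPM) by genotype and age in 4 gates, where points are libraries and bars the mean, with ± SD where there are 3 libraries. At 12 months the 3xTg-AD points lie below the WT points in excitatory neurons, thalamic neurons and astrocytes, of which the edgeR test called thalamic neurons (adjusted p = 0.0374), and dentate granule neurons have 2 3xTg-AD points at that age.

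In dentate granule neurons at 6 months, Sorcs1 and Sorcs2 were lower in 3xTg-AD than in WT, and 0.922% of genes tested there were called. Sorcs2 was at 139, 155 and 143 CPM in the 3xTg-AD libraries 1, 5 and 9 and at 254, 219 and 211 in the WT libraries 3, 7 and 11 (-0.58 ± 0.10, adjusted p = 0.0117). Sorcs1 was at 50.4, 46.8 and 54.5 CPM against 163, 82.7 and 76.3 (-0.85 ± 0.19, adjusted p = 0.0422). The groups did not overlap for either gene. Sorl1, Sort1 and Sorcs3 were not called there, at log2 fold changes of 0.10, 0.20 and -0.26.

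Of these WT libraries, replicate 3 held 38 granule nuclei, in which the summed markers of granule neurons were at 5088 CPM against 5593 to 5899 in the other 5 libraries of that age. The summed markers of CA1 and subiculum neurons in the granule gate were at 335, 380 and 427 CPM in the 3xTg-AD libraries 1, 5 and 9 and at 706, 469 and 469 in the WT libraries 3, 7 and 11. They did not overlap between genotypes, with or without replicate 3. Markers of layer 6 corticothalamic neurons did not overlap there either and ran the other way, at 410, 450 and 415 CPM in 3xTg-AD and 394, 374 and 397 in WT, while those of OPCs, astrocytes and oligodendrocytes overlapped. The part of either list in both calls was not tested. Without replicate 3 both calls stood (Sorcs2 -0.52, adjusted p = 0.00592, and Sorcs1 -0.63, adjusted p = 0.00972), and likewise without replicate 11 (adjusted p = 0.0156 and 0.0329). Both were lost without WT replicate 7 or any 1 of the 3xTg-AD libraries, where adjusted p ran from 0.0501 to 0.110 for Sorcs2 and from 0.0632 to 0.245 for Sorcs1. With the stricter gate the call of Sorcs1 was lost (adjusted p = 0.0504) and that of Sorcs2 stood (0.0118). Across the fits without a library, log2 fold changes stayed between -0.64 and -0.52 for Sorcs2 and between -1.03 and -0.63 for Sorcs1.

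At 12 months granule neurons could be tested with only 2 3xTg-AD libraries, one of which, replicate 6, held 23 nuclei with CA1 and subiculum markers at 899 CPM. Sorcs1 was at 369 and 45.8 CPM in the 3xTg-AD replicates 6 and 10 and 55.2, 62.8 and 42.2 in WT, so that replicate 6 stood alone and replicate 10 lay within the WT range. Sorcs3 was at 526 and 153 CPM against 156, 164 and 173, so that replicate 6 stood far above the WT libraries and replicate 10 just below them. The log2 fold change of Sorcs1 was 1.57 ± 0.68 (adjusted p = 1.00, 0% of genes called) and turned to -0.22 without replicate 6, when replicate 10 alone stood for 3xTg-AD. With replicate 6 alone it was 2.69. The lone library is assumed in both fits to vary as the WT libraries do. No direction is drawn for granule neurons at this age.

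**Figure D4:**
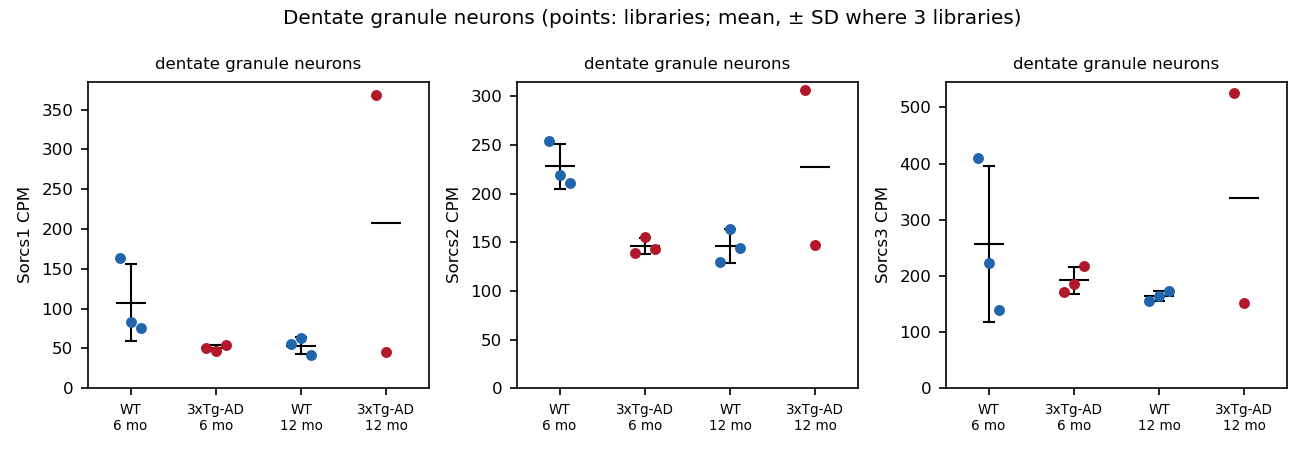
Sorcs1, Sorcs2 and Sorcs3 (y axis, CPM) in dentate granule neurons by genotype and age, where points are libraries and bars the mean, with ± SD where there are 3 libraries. At 6 months the 3xTg-AD points lie below the WT points for Sorcs1 and Sorcs2. At 12 months 1 of the 2 3xTg-AD libraries, with 23 nuclei, is the highest point of each gene, at 369, 306 and 526 CPM.

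Sorcs1 had positive log2 fold changes in several other neuron gates at 6 months that were not called. In thalamic neurons it was at 432, 441 and 433 CPM in 3xTg-AD and 276, 387 and 250 in WT, with no overlap (0.58 ± 0.15, adjusted p = 0.108, and 0.00362 with DESeq2). In pooled excitatory neurons it was at 416, 431 and 429 CPM against 377, 357 and 314 (0.35 ± 0.09, adjusted p = 0.152, and 0.0314 with DESeq2), but at a log2 fold change of 0.13 (adjusted p = 0.799) when thalamic, habenular and Lmx1a and Lmx1b neurons were left out. Sst interneurons had log2 fold changes of 0.38 at 6 months and 0.40 at 12 months (adjusted p = 0.531 and 0.387), with 0.123% and 0.497% of genes called. In the same interneurons at 6 months Sorcs3 was at 367, 425 and 453 CPM in 3xTg-AD and 341, 287 and 278 in WT (0.48 ± 0.12, adjusted p = 0.191). These groups, and those of Sorcs1 in pooled excitatory neurons, did not overlap either.

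Pooled inhibitory neurons had no receptor called, although 0.972% of genes were called at 6 months and 5.24% at 12 months. Their log2 fold changes ran from -0.23 to 0.18 and from -0.0050 to 0.25. Among their subtypes, D1 and D2 medium spiny neurons were tested at 6 months (0.174% and 0.129% of genes called) with no receptor called and log2 fold changes from -0.46 to 0.09 over both. Lamp5 interneurons at 6 months, with 20 to 23 nuclei a library, had Sorcs1 at 88.7 and 282 CPM in 3xTg-AD and 476 and 712 in WT (-1.66 ± 0.48, adjusted p = 0.999, 0% of genes called). With 1 library left out, which leaves 1 library in an arm, the log2 fold change ran from -2.72 without 3xTg-AD replicate 9 (adjusted p = 0.0131) to -1.05 without 3xTg-AD replicate 1 (adjusted p = 0.469), and the lone library is assumed to vary as the other group does.

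Among the other excitatory gates, habenular neurons at 12 months had Sorcs1 at 153, 52.6 and 87.1 CPM in 3xTg-AD and 57.5, 28.4 and 30.8 in WT (1.26 ± 0.36, adjusted p = 0.386, 0.0626% of genes called). These groups overlap. The log2 fold change was 0.72 with the stricter gate (adjusted p = 0.968), and with a library left out it ran from 0.84 without 3xTg-AD replicate 2 to 1.75 without WT replicate 4 (adjusted p = 0.661 and 0.296). Lmx1a and Lmx1b neurons, which carry transcription factors of the hypothalamus and midbrain, had log2 fold changes from -0.18 to 0.24 over both ages and no receptor called (0.122% and 0.0804% of genes called at 6 and 12 months).

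The oligodendrocyte lineage, where all 5 receptors differed between stages, had no receptor called between genotypes. In oligodendrocytes 1.35% and 1.43% of genes were called at 6 and 12 months. At 6 months Sorcs3 was at 173, 149 and 170 CPM in 3xTg-AD and 325, 191 and 179 in WT, a group in which replicate 3 stood above the other libraries (-0.53 ± 0.19, adjusted p = 0.247), and Sorcs1 was at 1220, 1237 and 1211 against 1580, 1432 and 1323 (-0.27 ± 0.11, adjusted p = 0.330). The groups of 6 months did not overlap for either gene. At 12 months all 5 log2 fold changes were between -0.22 and 0.25. OPCs (1.01% and 0.484% of genes called) had Sorcs2 at 34.8, 36.9 and 33.6 CPM against 19.1, 20.1 and 33.0 at 6 months (0.56 ± 0.22, adjusted p = 0.377), with no overlap, and 19.0, 36.3 and 40.1 against 40.5, 46.1 and 32.3 at 12 months (-0.24 ± 0.23, adjusted p = 0.910).

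In microglia, with 86 to 369 nuclei in a library, Sorl1 had a log2 fold change of 0.39 ± 0.25 at 6 months and 0.38 ± 0.24 at 12 months, and Sort1 of -0.42 ± 0.20 and -0.02 ± 0.18. None was called (adjusted p from 0.799 to 1.00 over the 10 tests, with 0.0483% and 0.37% of genes called at the 2 ages). Vascular, meningeal and ventricular cells had few nuclei and no receptor called at any age that was tested. At 6 and 12 months the background was 0.0319% and 0% in endothelial cells, 0% and 0% in pericytes and 0.183% and 0.0166% in fibroblasts, and at 6 months it was 0% in ependymal and 0.0411% in choroid plexus cells. Of the receptors 4 and 3 passed the filter on low counts in endothelial cells, 0 and 1 in pericytes and 5 and 4 in fibroblasts.

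**Figure D5:**
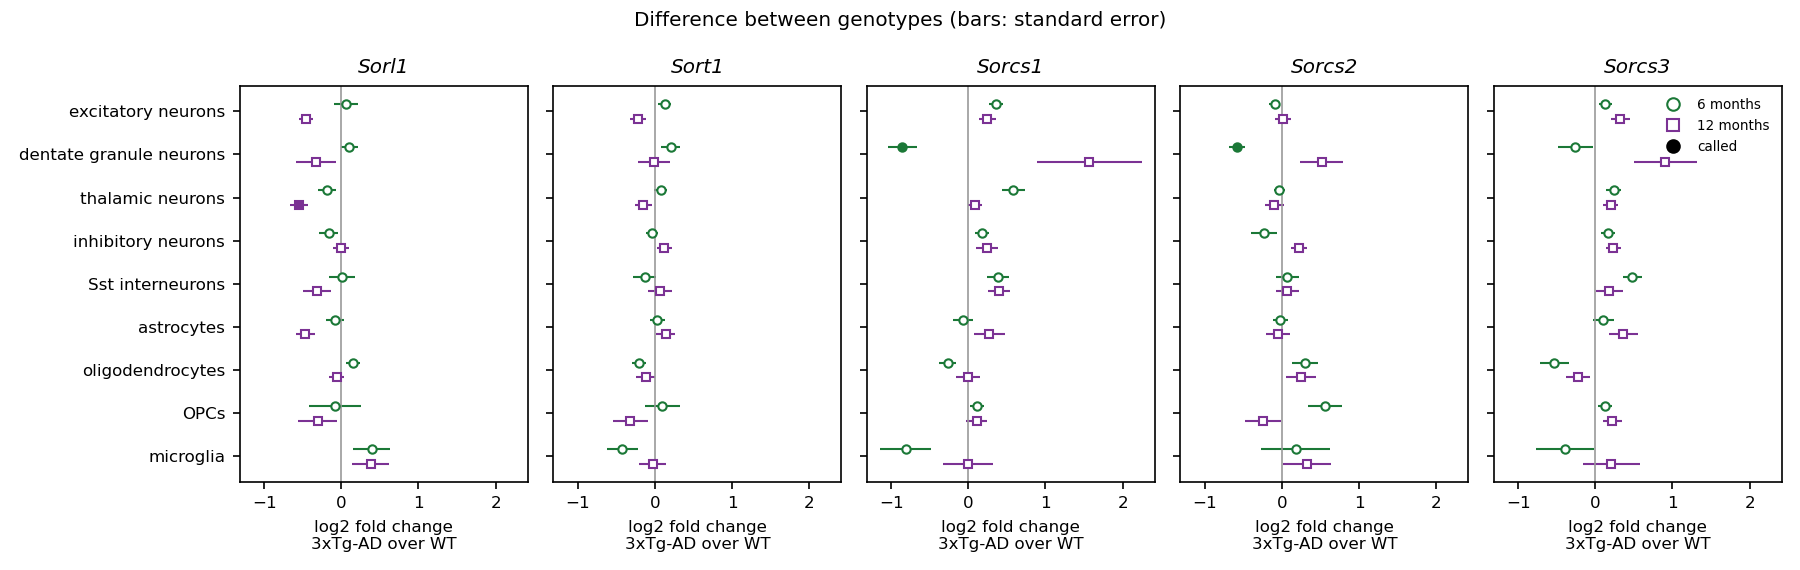
Log2 fold change of 3xTg-AD over WT (x axis) of each receptor gene in 9 gates (y axis) at 6 months (green circles) and 12 months (purple squares), with bars of 1 SE and filled symbols for genes called by edgeR. The filled symbols are Sorl1 in thalamic neurons at 12 months (-0.55) and Sorcs1 and Sorcs2 in dentate granule neurons at 6 months (-0.85 and -0.58).

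Whether the difference between genotypes itself changed with age was tested in the cell classes, over all 12 libraries, as an interaction in edgeR. None of 41 tests of a receptor was called, and 4 (9.76%) had an unadjusted p under 0.05, against 8.77% over all genes. The smallest unadjusted p was that of Sorl1 in excitatory neurons (-0.53 ± 0.19, adjusted p = 0.370), and Sorl1 in astrocytes had -0.38 ± 0.17 (adjusted p = 0.664). Over all genes, the interaction called 0.0103% in fibroblasts, 0% in endothelial cells and pericytes, 0.037% in excitatory neurons, 0.0672% in inhibitory neurons, 0.0199% in astrocytes, 0% in oligodendrocytes, 0.0895% in OPCs and 0.0404% in microglia. It was not fitted within neuron subtypes, so the ages were not compared for the 3 calls above.

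Between 12 and 6 months, with genotype in the model, 0 of 39 tests of a receptor were called by edgeR and 0 had an unadjusted p under 0.05 (smallest adjusted p = 0.724, Sorcs1 in microglia at -0.50 ± 0.28). Few genes of any kind were called there, 0% in excitatory neurons, astrocytes, OPCs, endothelial cells, pericytes and fibroblasts, 0.0105% in inhibitory neurons, 0.0722% in oligodendrocytes and 0.0429% in microglia.

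Genes that work with the receptors were followed in the same 32 fits. Of 20 retromer and sorting partners, which build the coats and tubules that retrieve the receptors from endosomes, 1 was called once, where the share of all genes called in a fit ran from 0% to 5.24%. Vps35l, a subunit of the related retriever complex, rose in thalamic neurons at 6 months, from 84.3, 85.7 and 87.6 CPM in WT to 105, 102 and 110 in 3xTg-AD (0.37 ± 0.07, adjusted p = 0.0314, 1.32% of genes called). The median log2 fold change of the list was between -0.07 and 0.20 in these fits, against -0.01 to 0.02 for the medians of all genes tested. None of the 8 neurotrophins and their receptors, of which at most 7 were tested in a fit, was called.

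Among proteases that cut the receptors, Pcsk6, a proprotein convertase, rose in thalamic neurons at 6 months (34.1, 45.9 and 38.6 against 23.6, 21.1 and 32.5 CPM, 0.70 ± 0.15, adjusted p = 0.0465, 1.32% of genes called). Among 15 other ligands and cargo, Lpl, a lipase that sortilin and SORLA bind, rose at 12 months in excitatory neurons (3.55, 3.83 and 6.05 against 1.82, 1.34 and 1.81 CPM, 1.47 ± 0.25, adjusted p = 0.0339, 0.863% of genes called) and inhibitory neurons (15.7, 12.1 and 4.21 against 0.81, 1.08 and 0.92 CPM, 3.65 ± 0.51, adjusted p = 0.0117, 5.24% of genes called). Kcnk2, a potassium channel that sortilin carries, rose in inhibitory neurons at 12 months (132, 125 and 93.2 against 68.1, 73.4 and 71.6 CPM, 0.84 ± 0.16, adjusted p = 0.0245). In inhibitory neurons replicate 10, which had the lowest striatal share of the 12-month 3xTg-AD libraries (14.7%), had the lowest level of both genes among the 3, and the part of that share in these calls was not tested.

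Apoe, whose lipoproteins are carried by SORLA and sortilin, rose in astrocytes at 6 months, from 1507, 1522 and 1563 CPM in WT to 2098, 2237 and 2194 in 3xTg-AD (0.52 ± 0.09, adjusted p = 0.0238, 0.774% of genes called), and Pdgfb, a growth factor that SorCS1 and SorCS3 bind, rose in thalamic neurons at 6 months (3.81, 3.96 and 4.75 against 1.85, 1.93 and 1.99 CPM, 1.18 ± 0.21, adjusted p = 0.0202).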

How the data were processed

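The authors aligned reads of 10x Genomics 3′ v3 libraries, sequenced on a NovaSeq, to mm10 with Cell Ranger 6.1.1 and deposited UMI counts per gene and nucleus. These deposited counts are raw, and precede their removal of ambient RNA with soupX and their filters. Whether introns or strand were used in counting is not given in the sources used here. Nuclei with 500 to 10000 genes, at most 5% mitochondrial UMIs and a log10 ratio of genes to UMIs above 0.8 were retained. No doublet caller was run, and nuclei with markers of more than 1 class were set aside.

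Each nucleus was gated by its own markers. Thresholds were set after the marker levels were seen, and those of granule, CA1 and CA3 neurons were tightened after a first version in which the receptors' levels had been seen. The members, gene lists and pairs of types were chosen with earlier results of these data known. Gates for Pvalb interneurons and border macrophages held fewer than 20 nuclei in every library and gave no levels, and those for layer 6, hypothalamic inhibitory and Cajal-Retzius neurons were dropped.

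Counts were summed per type and library with at least 20 nuclei, where both genotypes had at least 2 such libraries. They were tested with edgeR 4.0.16 (R 4.3.3) after TMM normalization and filterByExpr, and SE is the log2 fold change over the square root of F. Each library is 1 mouse, so the p-values of these tests measure the spread between libraries. Differences between mice, dissections and library preparations cannot be told apart in it. Levels over types were compared by exact sign-flip permutation within libraries, with a pseudocount of 1 CPM.

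Named are the 5 receptors in every type, the 3 genes most like each among those at 20 CPM or more in at least 1 type, and called genes of 4 lists. Results of some of these genes are not reported here. The edgeR test was also run on simulated counts with 200 genes changed 2-fold. In excitatory neurons at 12 months it recovered 135 (18306 genes, 20 of 155 calls, or 12.9%, false). In granule neurons at 6 months it recovered 132 (11927 genes, 17 of 149, or 11.4%, false). In thalamic neurons at 12 months it recovered 150 (15723 genes, 19 of 169, or 11.2%, false). These false shares are above the 0.05 of the adjusted p threshold. The 3 receptor calls, made in granule and thalamic neurons, had smaller fold changes than the simulated ones, and recovery at their size was not tested. The alternatives were another normalization, no filter on low counts, DESeq2 1.42.0, all 12 libraries in 1 fit, a stricter gate, no filters on nuclei, classes without subtypes from outside the hippocampus, and each library left out. Of subtypes from outside the hippocampus, only gated nuclei were left out. A fit of 8 libraries, without replicates 2, 3, 6 and 11, was added after the data were seen.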

Additional observations from a re-analysis of the deposited data

How the results depend on the processing

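The number of receptors called between genotypes changed with the setting, and so did the number of all genes called. With no filter on low counts 1 receptor was called in each of D1 medium spiny, Lamp5, Sst and thalamic neurons, microglia and oligodendrocytes at 6 months and in excitatory and habenular neurons at 12 months, and 2 in granule neurons at 12 months, against 0 in each. DESeq2 called 1 in excitatory neurons at both ages and 1 in thalamic neurons at 6 months, against 0. In excitatory neurons at 12 months all genes called were 488 of 27577 with no filter and 620 of 18306 with DESeq2, against 158 of 18306. With no filter, 611 of 25679 were called in thalamic neurons at 6 months (against 203 of 15436). Sst and Lamp5 interneurons at that age had 111 of 21139 and 49 of 17047 (against 12 of 9777 and 0 of 5101). Habenular neurons at 12 months had 65 of 18558 (against 4 of 6385). DESeq2 called 400 of 18200 in excitatory and 279 of 15436 in thalamic neurons at 6 months (against 195 and 203). Those of the other gates are not listed here. The stricter gate called 1 in excitatory neurons at 12 months (against 0), 1 in granule neurons at 6 months (against 2, with Sorcs1 lost) and 0 in thalamic neurons at 12 months (against 1). All genes called in these fits were 167 of 17366, 101 of 11899 and 212 of 15633. With each library left out in turn, the number ran from 0 to 1 in thalamic neurons at 6 months and in excitatory, inhibitory and thalamic neurons at 12 months. It ran from 0 to 2 in granule neurons at 6 months. In excitatory and inhibitory neurons it was 1 without 3xTg-AD replicate 10, and in thalamic neurons at 6 months without WT replicate 7. In Lamp5 interneurons, choroid plexus cells and, at 12 months, granule neurons, some of these fits have 1 library in an arm. It is assumed to vary as the other group does, so calls of those fits are not counted here. Without 3xTg-AD replicate 10 the genes called in all were 822 in excitatory neurons (against 158) and 3036 in inhibitory neurons (against 958) at 12 months. Sorcs1 in granule neurons at 12 months was the value that turned, with log2 fold changes from -0.22 to 2.69 when a library was left out. The cause was not tested.

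Among neighbours in the order of levels, which are 15 per gene with the stricter gate, 2 differed for Sorl1, 1 for Sort1, 2 for Sorcs1 and 1 for Sorcs3, and with nuclei weighted equally 1 of 19 differed for Sorcs1, against 0. The highest type became Vip interneurons for Sorcs1 with nuclei weighted equally and OPCs for Sorcs3 with the stricter gate. The stricter gate has no Vip library. Its order also leaves out Lmx1a and Lmx1b neurons, which had too few libraries but a higher mean of Sorcs3 than OPCs (806 against 671 CPM). Weighting nuclei equally moved 18 of 120 levels by more than the SD of the libraries, and the stricter gate moved 4 of 115. No paired analysis was possible because the groups share no replicate numbers. With 3 libraries a group and 20 to 32 nuclei a library in Vip and Lamp5 interneurons, differences that were not called are not shown to be absent. Ambient RNA was not removed, and its part in low levels such as Sorcs2 in oligodendrocytes was not tested.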
